A study of Callithrix jacchus with 20 samples.

Results

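The HOX genes of clusters A to D were examined in marmoset cells on their way from induced pluripotent stem cells (cjiPSCs) to primordial germ cell-like cells (cjPGCLCs). Members were chosen by name alone, as every gene of the count table with a symbol made of HOX, a cluster letter from A to D and a paralogue number. This gave 37 of the 25102 genes in the table, of which 36 are described here. The counts, sums and medians below are over these 36, namely 10 of HOXA, 9 of HOXB, 8 of HOXC and 9 of HOXD. Antisense transcripts were not taken, and HOXB13 and HOXC12 were not analysed here. RNA-seq libraries came from 10 conditions with 2 biological replicates each, all of the single line DPZ_cjiPSC#2 (DPZ_cjiPSC2 in the labels). The cjiPSCs were kept in TESR medium or in cjPSCM, a medium the study adapted for marmoset cells. From each of these, precursors of mesendoderm (pre-ME) were induced with the GSK3 inhibitor CHIR, either with or without Activin A (ActA). Pre-ME from the cjPSCM cultures were then grown as embryoid bodies in medium with BMP4, LIF, SCF and EGF. From these, cells carrying both sort markers (cjPGCLCs) and cells lacking both (somatic cells) were sorted on day 4, again for pre-ME with and without ActA. Day 4 cells therefore differ from pre-ME by these factors, by time and by the sort, which cannot be told apart. The labels name EpCAM beside CXCR4 or INTa6 as sort markers, while the study's methods name INTα6 and CXCR4. The sorted cells are therefore cells of mixed embryoid bodies defined by surface markers, and all of those analysed here came from cjPSCM cultures. The replicates are cultures of 1 line, so errors below measure the spread within that line.

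HOX genes encode homeodomain transcription factors that give cells a position along the head-to-tail axis of the embryo. They lie in clusters whose members carry paralogue numbers, and the low-numbered genes of a cluster generally come on earlier and further forward in the body than the high-numbered ones. Their activation in the posterior embryo follows WNT, FGF and retinoic acid signals and the CDX factors, and PBX, MEIS and PKNOX proteins bind DNA together with them. In the mouse, germ cells are specified at the posterior end of the embryo, where nearby mesoderm expresses HOX genes, and repression of HOX genes is a known feature of early mouse germ cells.

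In the values below, a level is the count of a gene divided by the size factor of its library, as the authors deposited it (normalised counts), and a pair of levels gives replicate 1 and then replicate 2. Levels were compared only for the same gene or the same sum across conditions, since a longer transcript yields more reads. Libraries held between 4784964 and 22067099 reads on genes. A gene was called detected in a condition when both libraries had over 3 counts, which covers counting error only. In bulk RNA, fewer cells with a transcript and less of it in each cell cannot be told apart. Of the 36 members described, 19 passed edgeR's filter on low counts and were tested, namely 7 of 10 in HOXA, 5 of 9 in HOXB, 3 of 8 in HOXC and 4 of 9 in HOXD. All 7 described with paralogue numbers 1 to 3 were among them, against 6 of 15 with numbers 4 to 8 and 6 of 14 with numbers 9 to 13. The filter lets a gene pass through the condition where it is high, so counts of tested members are a description of these 19. A call of a gene that passed only through its higher group is likewise a description. A gene was called higher or lower when its adjusted p in edgeR's quasi-likelihood test was under 0.05 and its log2 fold change was beyond 2. Where the lower group had at most 3 counts in both libraries, the fold is given as a bound against 3 counts per library, and where such a bound lies under 4-fold the call met the fold threshold by its fitted value alone.

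The number of HOX genes detected differed widely between conditions. In cjiPSCs, 4 members were detected in TESR and 3 in cjPSCM. Pre-ME from TESR cultures had the most, with 22 without ActA and 27 with it. Pre-ME from cjPSCM cultures had 6 and 10. On day 4 the somatic cells had 12 without and 11 with ActA, and the cjPGCLCs 5 and 9. Against a single floor of 0.627 CPM for all libraries, in place of 3 counts in each, the numbers were 4 and 1 in cjiPSCs, 11 and 20 in pre-ME from TESR, 4 and 8 in pre-ME from cjPSCM, 11 and 11 in somatic cells and 5 and 9 in cjPGCLCs. This floor is 3 counts in the shallowest library and stands for more counts in deeper ones. The count fell from 3 to 1 in cjPSCM cjiPSCs and from 22 to 11 in TESR pre-ME without ActA. Part of the detected members thus lay between 3 counts and this higher floor in a library. In TESR pre-ME without ActA, HOXD8 with 5 and 4 raw counts and HOXA10 with 9 and 19 fell below it. By the rule of over 3 counts in both libraries, HOXA2 and HOXB2, which act in the hindbrain, were detected in all 10 conditions. HOXA4, HOXA6, HOXC5, HOXC11, HOXC13, HOXD11, HOXD12 and HOXD13 were detected in none. Against the single floor HOXA2 was not detected in cjPSCM cjiPSCs, where replicate 1 had 5 raw counts.

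**Figure D1:**
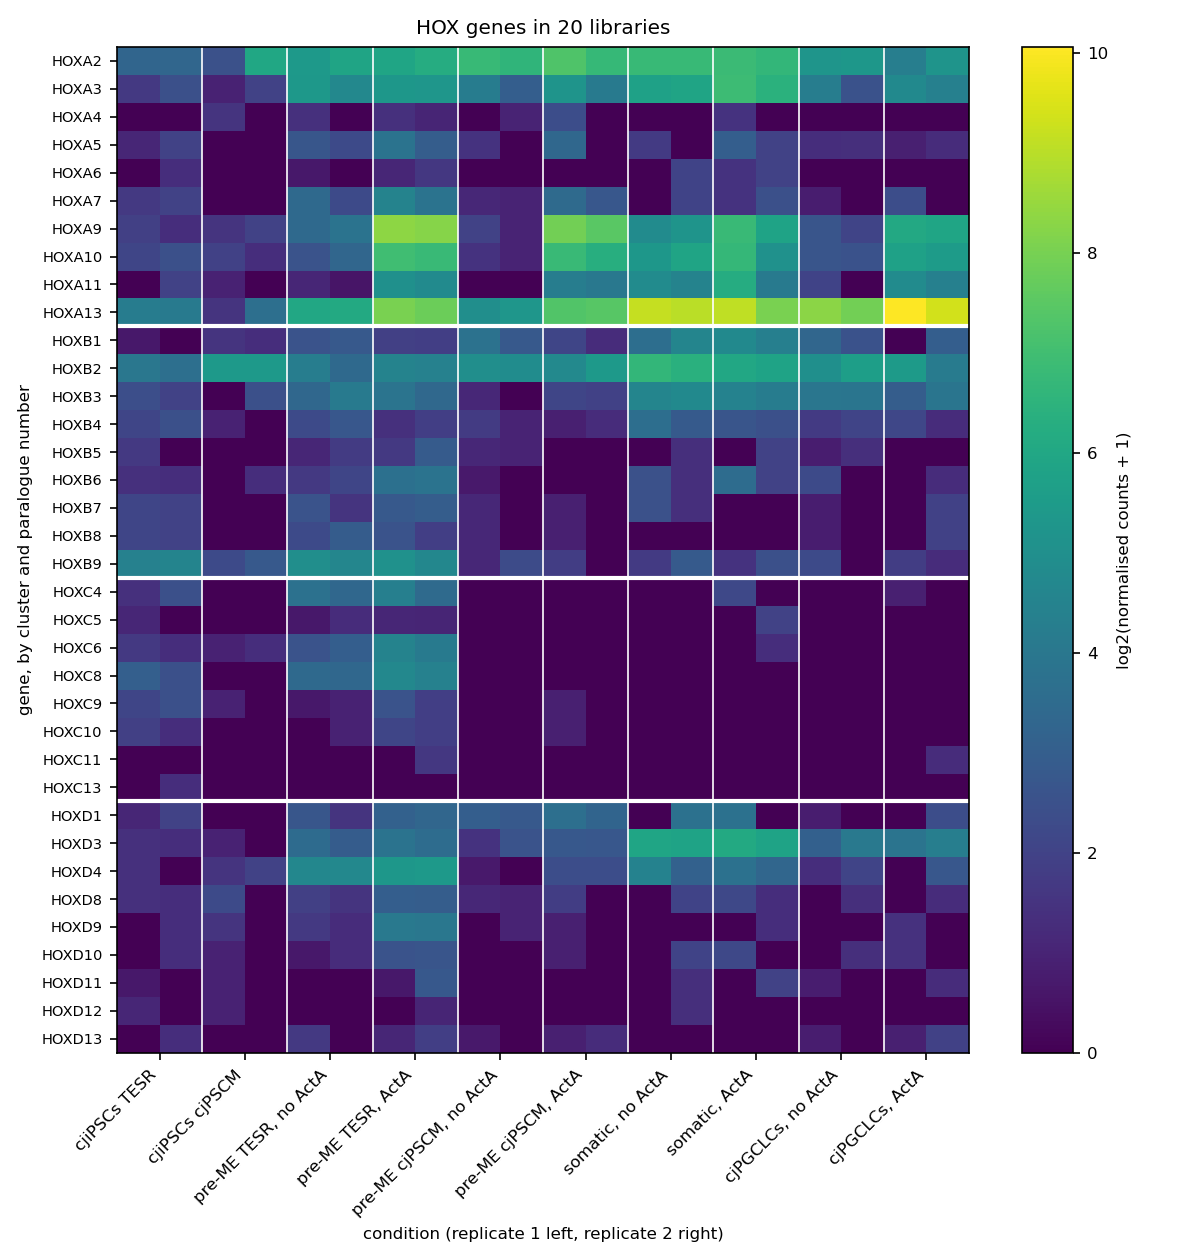
Colour gives log2 of the normalised count plus 1 for the 36 HOX genes (lines, ordered by cluster and paralogue number, white lines between clusters) in the 20 libraries (columns, replicates 1 and 2 of each of the 10 conditions). HOXC4, HOXC6 and HOXC8 are brightest in TESR pre-ME, and HOXA9, HOXA10, HOXA11 and HOXA13 are darker in cjiPSCs than in pre-ME with ActA.

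Taken over each cluster, the sum of HOXA levels was 42.1 ± 5.76 (SD, n = 2) in cjiPSCs in TESR and 48.3 ± 47.0 in cjPSCM. It was 182 ± 0.0455 and 838 ± 62.0 in TESR pre-ME without and with ActA, and 155 ± 16.0 and 663 ± 124 in cjPSCM pre-ME. HOXA sums in somatic cells were 819.7 ± 14.9 without and 822 ± 365 with ActA, and those in cjPGCLCs 342 ± 66.6 and 1054 ± 297. The HOXA sum was thus lowest in both cjiPSC conditions, and in cjPGCLCs and in pre-ME of both media the ActA libraries did not overlap with those without ActA. The HOXB sum had a narrower range, from 42.6 ± 7.21 in cjPSCM pre-ME with ActA to 155 ± 6.40 in somatic cells without ActA. The HOXC sum was 18.0 ± 0.219 in TESR cjiPSCs, 28.8 ± 0.339 in TESR pre-ME without ActA and 65.4 ± 13.6 with it. In the other 7 conditions HOXC sums were at most 4.01 ± 0.658. They were 0 in pre-ME from cjPSCM, somatic cells and cjPGCLCs without ActA, where no HOXC gene had a single read in either library, and a count of 0 still allows up to 3 counts per library. The HOXD sum was highest in TESR pre-ME with ActA at 94.2 ± 6.34 and in somatic cells at 82.9 ± 3.09 without and 85.4 ± 19.5 with ActA, and lowest in cjPSCM cjiPSCs at 7.13 ± 5.90.

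The medium of the cjiPSCs was compared first, cjPSCM against TESR. HOXC8 and HOXB9, which pattern the thorax and the forelimb level of the spinal cord, were lower in cjPSCM, and no HOX gene was higher. HOXB9 had levels of 20.4 and 22.3 in TESR and 3.77 and 5.93 in cjPSCM, a log2 fold change of -2.18 ± 0.62 with adjusted p = 0.0115 (SE, edgeR). HOXC8 had levels of 7.16 and 4.47 in TESR and no read in either cjPSCM library, so that it was at least 1.60-fold lower (adjusted p = 0.00758). Neither gene had a cjPSCM library within the range of its TESR libraries. These were 2 of 19 tested members, while 3.67% of all genes tested were lower. With 0 members higher against 5.51% of all genes, edgeR gave an unadjusted p under 0.05 for 2 members with a positive change, and DESeq2 called 0 higher. HOXB2, an early hindbrain gene, had 14.9 and 11.9 in TESR and 41.4 and 41.5 in cjPSCM, with a log2 fold change of 1.56 ± 0.43 with adjusted p = 0.00964, under the fold threshold. The cjPSCM replicates stood apart from each other for other members. HOXA2 had 4.71 and 62.3 in them, against 8.81 and 8.93 in TESR. HOXA13 had 1.88 and 11.9 in cjPSCM and 17.6 and 16.4 in TESR. Replicate 2 was thus the higher of the cjPSCM libraries for both genes. Without it, 4 members were lower in cjPSCM, adding HOXA13 and HOXB3. Without replicate 1, HOXA2 was called higher. HOXC8 was not called without TESR replicate 1 or by DESeq2, and HOXB9 was not called without cjPSCM replicate 1.

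The pre-ME step was then compared with the cjiPSCs of the same medium. All TESR pre-ME samples form a separate, later block of the series than the other samples. Whether they were prepared together with the others is not stated. For TESR, the pre-ME step and a possible batch difference therefore cannot be told apart. In both media and with or without ActA, HOXA3 was higher in pre-ME, and no HOX gene was lower. HOXA3 acts in the pharyngeal region. HOXA3 had 2.20 and 4.47 in TESR cjiPSCs, 40.0 and 25.3 in TESR pre-ME without ActA and 38.9 and 37.7 with it. Its log2 fold changes there were 3.45 ± 0.63 with adjusted p = 0.000486 and 3.68 ± 0.62 with adjusted p = 0.000287. In cjPSCM cjiPSCs HOXA3 had only 1 and 2 raw counts, and its levels of 17.7 and 6.93 without and 35.9 and 16.9 with ActA were at least 3.39-fold and at least 7.25-fold higher. All pre-ME libraries lay above all cjiPSC libraries of their medium for this gene. HOXA2, which specifies the skeleton of the hyoid arch, had 42.8 and 58.0 in TESR pre-ME without and 58.6 and 73.2 with ActA. These were log2 fold changes of 2.50 ± 0.64 with adjusted p = 0.00627 and 2.89 ± 0.64 with adjusted p = 0.00244 over the TESR cjiPSCs. In cjPSCM cjiPSCs HOXA2 had 4.71 and 62.3, and in cjPSCM pre-ME 110.2 and 95.1 without ActA (1.80 ± 0.56 with adjusted p = 0.0187, under the fold threshold) and 158 and 107 with it (2.16 ± 0.56 with adjusted p = 0.0141). The latter log2 fold change was 1.14 without cjPSCM cjiPSC replicate 1 and 1.82 without pre-ME replicate 1, where HOXA2 was not called, and 4.79 without cjiPSC replicate 2.

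**Figure D2:**
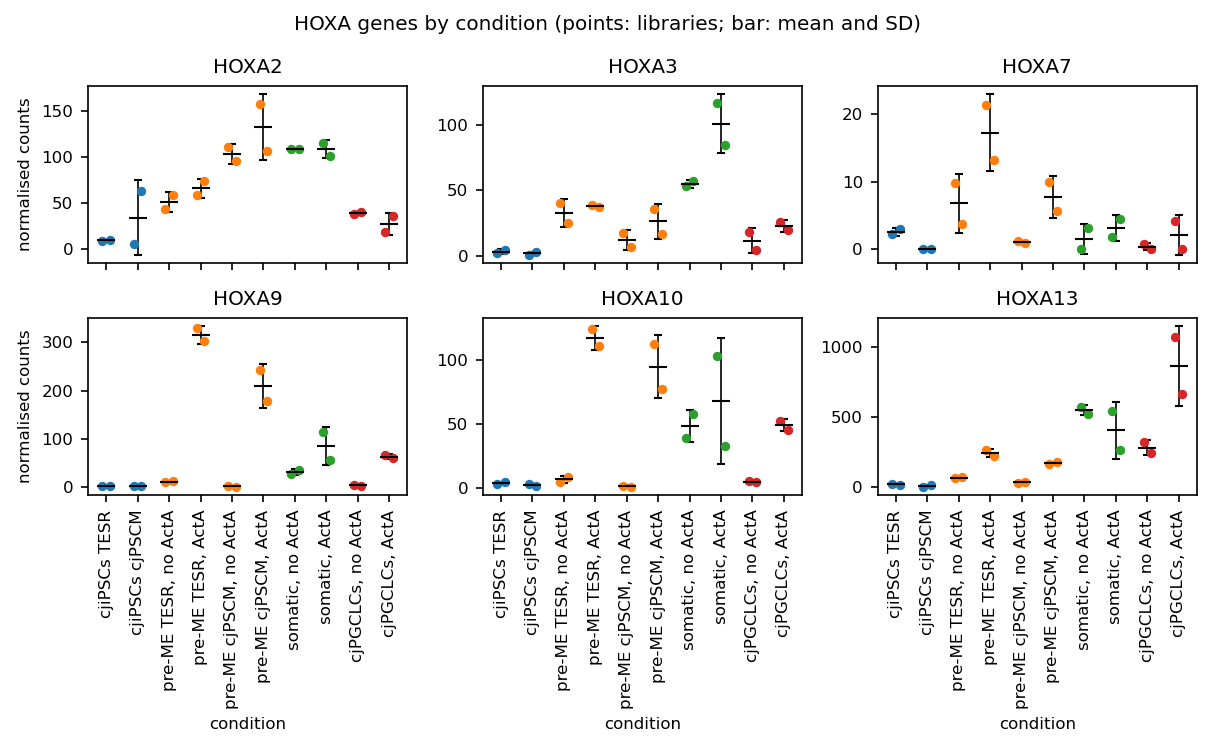
Normalised counts of 6 HOXA genes in the 10 conditions; points are libraries, and the black bar gives the mean with the SD of 2 replicates. HOXA2 has its highest mean in cjPSCM pre-ME with ActA, HOXA7, HOXA9 and HOXA10 are high in the ActA pre-ME conditions, HOXA3 is highest in somatic cells and HOXA13 in cjPGCLCs with ActA.

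With ActA, 13 of 19 tested members were higher in TESR pre-ME than in TESR cjiPSCs, where 4.44% of all genes tested were higher and 2.53% lower. They were HOXA2, HOXA3, HOXA7, HOXA9, HOXA10, HOXA11, HOXA13, HOXB6, HOXC4, HOXC6, HOXD3, HOXD4 and HOXD9. The median log2 fold change was 2.89 over the 19 tested HOX genes and -0.017 over all genes tested. HOXA9 rose from 2.75 and 1.49 to 329 and 302, the largest fitted change of the comparison at 6.98 ± 0.43 with adjusted p = 1.33e-08 (edgeR). HOXA10 rose from 3.31 and 4.47 to 124 and 110.4 (4.96 ± 0.52 with adjusted p = 3.43e-06). HOXA9 and HOXA10 belong to the posterior end of the cluster and are known from blood stem cells, the lower trunk and the uterus. HOXD4, a hindbrain gene that answers to retinoic acid, had 1.65 and 0 in cjiPSCs and 39.4 and 42.5 in pre-ME, at least 13.4-fold higher. HOXA11 had 0 and 2.98 in cjiPSCs and 31.7 and 27.1 in pre-ME, at least 9.61-fold higher. HOXD9 had 0 and 1.49 in cjiPSCs and 15.9 and 14.9 in pre-ME, at least 5.02-fold higher. In each of these genes the groups did not overlap. The others called with cjiPSCs at the floor were HOXB6, HOXC4 and HOXD3, at least 4.14-fold, 4.78-fold and 3.88-fold higher. HOXA13 rose from 17.6 and 16.4 to 263 and 220.3 (3.81 ± 0.39 with adjusted p = 3.05e-06). The log2 fold change of HOXC6 was 3.18 ± 0.57 and that of HOXA7 2.78 ± 0.71. DESeq2 called 8 of the 13, and gave HOXB6, HOXC4, HOXC6, HOXD9 and HOXA7 no call. HOXC4 and HOXA7 were also not called without TESR cjiPSC replicate 1 or TESR pre-ME with ActA replicate 1, and HOXB6 without the former.

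Without ActA, 7 of 19 tested members were higher in TESR pre-ME (HOXA2, HOXA3, HOXA9, HOXB1, HOXC4, HOXD3 and HOXD4), against 4.54% of all genes higher and 3.32% lower. The median log2 fold change was 1.69 over the 19 tested HOX genes and -0.034 over all genes tested. HOXD4 had 24.1 and 25.3 in pre-ME, at least 8.07-fold above the cjiPSCs (adjusted p = 0.000337, edgeR). HOXB1, which specifies a hindbrain segment, had 0.551 and 0 in cjiPSCs and 4.94 and 6.08 in pre-ME, at least 1.80-fold higher. HOXD3, a gene of the neck vertebrae, had 1.65 and 1.49 in cjiPSCs and 10.4 and 6.55 in pre-ME, at least 2.77-fold higher. HOXC4 had 1.65 and 4.47 in cjiPSCs and 12.6 and 9.36 in pre-ME, at least 3.59-fold higher. These levels were low, and the groups did not overlap. HOXA9 had 9.88 and 13.1 in pre-ME (2.23 ± 0.54 with adjusted p = 0.00429). HOXA13 had 65.3 and 68.3 against 17.6 and 16.4, just short of the fold threshold at 1.96 ± 0.41 with adjusted p = 0.00152. The count fell to 4 without TESR cjiPSC replicate 1, where HOXA2, HOXB1, HOXC4 and HOXD3 were not called and HOXA13 was. It fell to 4 without replicate 2 of the pre-ME as well, where HOXA9, HOXB1 and HOXC4 were not called. HOXB1 and HOXC4 also lost their calls without the other replicate of either group, HOXD3 without replicate 1 of the pre-ME, and HOXC4 without single libraries of 2 further conditions and in DESeq2.

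From the cjPSCM cultures, 9 of 19 tested members were higher in pre-ME with ActA, against 1.42% of all genes higher and 1.64% lower. They comprised all 7 tested HOXA genes described, together with HOXD1 and HOXD3. The median log2 fold change was 0.84 over the 19 tested HOX genes and -0.00039 over all genes tested. HOXA9 had 1.88 and 2.96 in cjiPSCs and 243 and 178 in pre-ME, at least 57.9-fold higher (adjusted p = 2.4e-07, edgeR). HOXA10 had 2.83 and 1.48 in cjiPSCs and 112 and 77.2 in pre-ME, at least 26.0-fold higher. HOXA13, the last gene of the cluster and known from hindgut, limb and allantois, rose from 1.88 and 11.9 to 161 and 176, a log2 fold change of 4.83 ± 0.51 with adjusted p = 1e-05. These genes were low in both cjiPSC libraries and high in both pre-ME libraries. HOXA11 had 0.942 and 0 in cjiPSCs and 18.4 and 15.4 in pre-ME, at least 4.65-fold higher. HOXA7 had no read in the cjiPSCs and 10.01 and 5.62 in pre-ME, at least 2.15-fold higher. HOXD1 had no read and 11.7 and 8.43, at least 2.76-fold higher. HOXD3 had 0.942 and 0 in cjiPSCs and 5.84 and 5.62 in pre-ME, at least 1.58-fold higher. For 7 of the 9 calls the cjiPSCs were at or under 3 counts, and the bounds of HOXA3, HOXA9, HOXA10 and HOXA11 lie above 4-fold. Only 3 members (HOXA9, HOXA10 and HOXA13) remained called without cjPSCM cjiPSC replicate 1, and the same 3 without replicate 1 of the pre-ME with ActA. HOXD3 also lost its call without the other replicate of either group, and HOXD1 without replicate 2 of the pre-ME or without a library of 3 further conditions. DESeq2 called 6, without HOXA7, HOXD1 and HOXD3.

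In cjPSCM pre-ME without ActA, 4 of 19 tested members were higher than in the cjiPSCs (HOXA3, HOXA13, HOXB1 and HOXD1), against 2.11% of all genes higher and 3.16% lower. The median log2 fold change was -0.043 over the 19 tested HOX genes and 0.028 over all genes tested. HOXA13 had 30.7 and 37.6 in pre-ME, a log2 fold change of 2.53 ± 0.60 with adjusted p = 0.00381 (edgeR). HOXB1 had 1.88 and 1.48 in cjiPSCs and 12.97 and 5.94 in pre-ME, at least 2.60-fold higher. HOXD1 had no read and 7.07 and 5.94, at least 1.79-fold higher. None of the 4 calls stood without cjPSCM cjiPSC replicate 1, the library with the low HOXA2 and HOXA13 levels. Only HOXA13 was called without replicate 1 of this pre-ME, a count of 1, and 2 members without either replicate of the TESR pre-ME with ActA, where HOXB1 and HOXD1 were lost. HOXB1 was called in 13 and HOXD1 in 8 of the 20 fits that each left out 1 library, and neither without cjPSCM cjiPSC replicate 2. DESeq2 did not call HOXB1. In the 4 comparisons of pre-ME with cjiPSCs, 0 members were lower. In edgeR 0 members with a negative change had an unadjusted p under 0.05 in any of the 4, and DESeq2 called 0 lower in each.

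ActA was then compared with no ActA within pre-ME of each medium. In the cjPSCM series, HOXA7, HOXA9, HOXA10, HOXA11 and HOXA13 were higher with ActA than without. HOXA9 had 2.95 and 0.991 without ActA and 243 and 178 with it, a log2 fold change of 6.51 ± 0.43 with adjusted p = 1.73e-07 (edgeR). HOXA10 had 1.77 and 0.991 without and 112 and 77.2 with ActA, at least 39.9-fold higher with ActA. HOXA11, which like HOXA10 acts in the developing uterus and limb, had no read without ActA and 18.4 and 15.4 with it, at least 7.13-fold higher. Every ActA library lay far above every library without ActA for these 3 genes. HOXA13 had 30.7 and 37.6 without and 161 and 176 with ActA (2.29 ± 0.36 with adjusted p = 0.000455). HOXA7, a gene of the thorax, had 1.18 and 0.991 without and 10.01 and 5.62 with ActA, at least 3.30-fold higher with adjusted p = 0.0461. HOXA7 was called in 8 of 20 fits that each left out 1 library, in none of those without a library of the comparison, and not by DESeq2. The anterior genes HOXA2 and HOXA3 did not pass the test. The log2 fold change was 0.35 ± 0.49 with adjusted p = 0.639 for HOXA2 and 1.05 ± 0.50 with adjusted p = 0.144 for HOXA3. These were 5 of 19 tested members (5 of 7 in HOXA), against 1.42% of all genes higher and 0.69% lower, with a median log2 fold change of 0.62 over the 19 tested HOX genes and -0.018 over all genes tested. No member was called lower, by edgeR or by DESeq2, and 1 had an unadjusted p under 0.05 in that direction, HOXB1, with 12.97 and 5.94 without ActA and 3.34 and 1.40 with it (-1.92 ± 0.81 with adjusted p = 0.0991). HOXD4 had 0.590 and 0 without and 4.17 and 4.21 with ActA (adjusted p = 0.0752), and was called higher when no filter on low counts was set. HOXB6 had 1 and 0 and 0 and 0 raw counts without and with ActA, so no fold change is given. Of the cell type markers tested in this comparison (4 of amnion and surface ectoderm, 4 of mesoderm, 3 of pluripotency, 5 of germ cells and 1 of endoderm), 1 was called, TFAP2A of the amnion and surface ectoderm list, which was lower with ActA. TFAP2A had 187 and 198 without and 24.2 and 15.4 with ActA (-3.24 ± 0.48 with adjusted p = 0.00026). Its list summed to 1204 and 1142 without and 1718 and 1366 with ActA, and the part of such cells in the HOXA difference was not tested.

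In the TESR series, HOXA9, HOXA10, HOXA11, HOXB6 and HOXD9 were higher in pre-ME with ActA. HOXA9 had 9.88 and 13.1 without and 329 and 302 with ActA, a log2 fold change of 4.76 ± 0.33 with adjusted p = 2.72e-07 (edgeR). HOXA10 had 4.94 and 8.89 without and 124 and 110.4 with ActA (4.04 ± 0.44 with adjusted p = 1.21e-05). HOXA11 had 1.10 and 0.468 without and 31.7 and 27.1 with ActA, at least 19.3-fold higher. As in the other series, the groups were wide apart. HOXD9, a posterior gene of the limb and lower trunk, had 2.19 and 1.40 without and 15.9 and 14.9 with ActA (3.04 ± 0.65 with adjusted p = 0.00798). HOXB6 had 2.19 and 3.28 without and 12.04 and 13.3 with ActA (2.15 ± 0.62 with adjusted p = 0.0388). HOXA13 had 65.3 and 68.3 without and 263 and 220.3 with ActA, and HOXC6 4.94 and 7.02 without and 21.3 and 16.5 with ActA. Their log2 fold changes of 1.85 ± 0.31 with adjusted p = 0.000943 and 1.63 ± 0.43 with adjusted p = 0.0343 passed the test but not the fold threshold. The anterior HOXA2 and HOXA3 had log2 fold changes of 0.38 ± 0.49 and 0.23 ± 0.42, with adjusted p = 0.781 and 0.86, and HOXA7 of 1.36 ± 0.54 with adjusted p = 0.157. Again 5 of 19 tested members were higher, against 1.43% of all genes higher and 0.57% lower, and the median log2 fold change was 1.20 over the 19 tested HOX genes and 0.0072 over all genes tested. No member was lower by either tool, nor at an unadjusted p under 0.05 (0). HOXB6 and HOXD9 lost their calls (leaving 3) without either replicate of pre-ME without ActA or without replicate 1 of pre-ME with ActA, and had no call in DESeq2. HOXB6 also lost it without replicate 2 of pre-ME with ActA and without either replicate of somatic cells without ActA, whose spread enters the shared model. Of the same 17 cell type markers, 5 were called in this series. The mesoderm genes HAND1 and MIXL1 were higher with ActA, HAND1 with 14.8 and 10.3 without and 111 and 55.2 with it, and MIXL1 with 9.33 and 6.08 without and 87.6 and 95.5 with it. NANOG, a pluripotency gene, had 117 and 119 without and 1052 and 1106 with ActA (3.19 ± 0.29 with adjusted p = 2.05e-06). In the amnion and surface ectoderm list ISL1 was higher, with 207 and 223 without and 934 and 918 with ActA, and TFAP2A lower, with 66.4 and 62.2 without and 14.2 and 17.5 with ActA. Summed levels without and with ActA were 40.6 and 34.2 against 221 and 161 for mesoderm and 2818 and 1776 against 7174 and 5311 for amnion and surface ectoderm. Their part in the HOX differences was not tested. Whether the ActA difference itself differed between the media was tested as an interaction. No tested member passed the adjusted p of 0.05, against 0.399% of all genes, with 2 members at an unadjusted p under 0.05 and 0 called by DESeq2. Those were HOXA9, with an interaction of 1.749 ± 0.61 on the log2 scale (adjusted p = 0.179), and HOXA10, with 1.86 ± 0.84 (adjusted p = 0.268). In cjPSCM pre-ME without ActA both genes rest on few reads, 5 and 1 raw counts for HOXA9 and 3 and 1 for HOXA10, so the fitted interaction of HOXA10 is no bound.

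**Figure D3:**
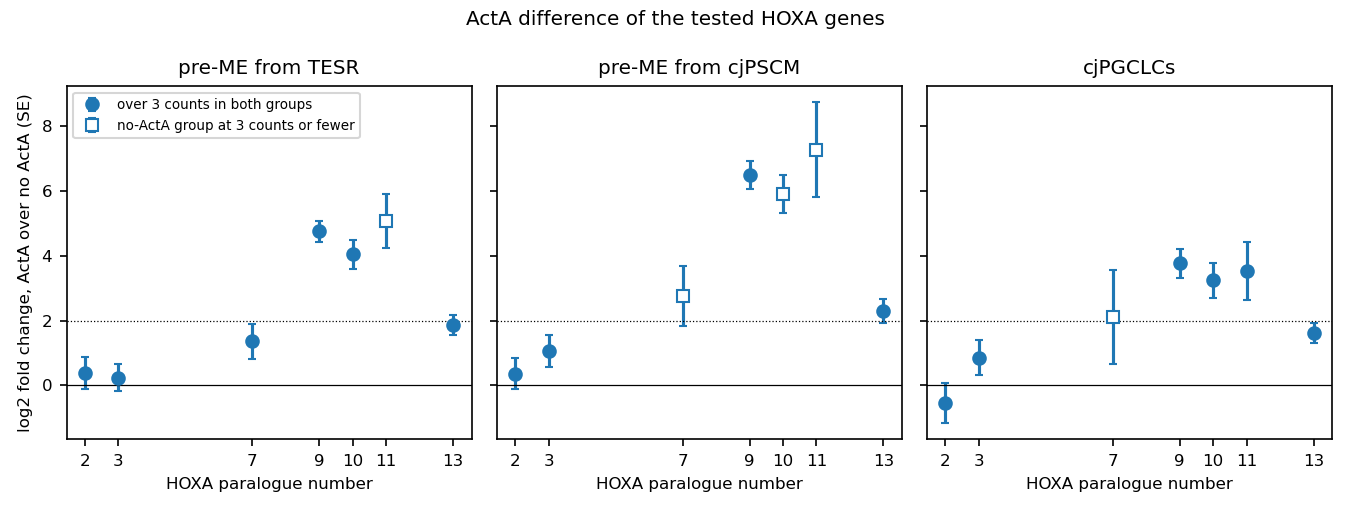
Log2 fold change of ActA over no ActA with its SE from edgeR for 7 tested HOXA genes, by paralogue number, in TESR pre-ME, cjPSCM pre-ME and cjPGCLCs. Open squares mark genes at or under 3 counts without ActA, whose fitted value is no bound; the dotted line is the fold threshold of 2. HOXA9, HOXA10 and HOXA11 lie above this line in all 3 panels and HOXA2 and HOXA3 below it.

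Pre-ME of the TESR and cjPSCM cultures were next set against each other. The TESR pre-ME samples are the separate block named above, so medium and a possible batch difference cannot be told apart here. They had 18858625 to 22067099 reads on genes, against 8193936 to 17491325 in cjPSCM pre-ME. A count of 0 in the latter therefore allows a higher level. Mostly genes of HOXB, HOXC and HOXD were higher in TESR pre-ME, and no HOX gene was lower. HOXC8 had 25.2 and 20.7 in TESR pre-ME with ActA and no read in cjPSCM pre-ME, at least 6.83-fold higher (adjusted p = 0.000538, edgeR). HOXC6 had 21.3 and 16.5 and no read, at least 5.63-fold higher. HOXC4 had 19.2 and 10.1 and no read, at least 4.35-fold higher. HOXC4, HOXC6 and HOXC8 pattern the neck and thorax, and all of the cjPSCM pre-ME libraries were at 0 counts for them. HOXB9 had 33.4 and 24.4 in TESR and 2.50 and 0 in cjPSCM pre-ME, at least 8.61-fold higher. HOXB6 had 12.04 and 13.3 and no read, at least 3.77-fold higher. HOXD9 had 15.9 and 14.9 in TESR and 0.834 and 0 in cjPSCM pre-ME, at least 4.58-fold higher. HOXD4 had 39.4 and 42.5 in TESR and 4.17 and 4.21 in cjPSCM pre-ME (3.27 ± 0.60 with adjusted p = 0.000955), the latter from 5 and 3 raw counts. These 7 of 19 tested members stood against 1.44% of all genes higher and 2.68% lower, with a median log2 fold change of 1.05 over the 19 tested HOX genes and 0.018 over all genes tested. HOXB6, HOXC4, HOXC6 and HOXC8 were detected only in TESR pre-ME, and HOXD9 only in those with ActA. These genes thus passed the filter through the group called higher, and their share of the tested members is no separate support. All 7 kept their calls in each of the 20 fits that left out 1 library. DESeq2 called 2, HOXB9 and HOXD4, and its own filter gave the other 5 no adjusted p. No HOXA gene of those described was called. HOXA9 had 329 and 302 in TESR and 243 and 178 in cjPSCM pre-ME (0.59 ± 0.26 with adjusted p = 0.104).

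Without ActA, 7 of 19 tested members were higher in TESR pre-ME, HOXA9, HOXB3, HOXB9, HOXC4, HOXC6, HOXC8 and HOXD4, against 1.22% of all genes higher and 2.68% lower. The median log2 fold change was 2.34 over the 19 tested HOX genes and 0.01 over all genes tested. HOXD4 had 24.1 and 25.3 in TESR and 0.590 and 0 in cjPSCM pre-ME, at least 10.4-fold higher (adjusted p = 0.000194, edgeR). HOXB3 had 9.33 and 16.4 in TESR and 1.18 and 0 in cjPSCM pre-ME, at least 5.42-fold higher. HOXC4 had 12.6 and 9.36 and no read, at least 4.64-fold higher. Once more the groups did not overlap. HOXC8 had 9.88 and 9.36 and no read, at least 4.06-fold higher. HOXC6 had 4.94 and 7.02 and no read, at least 2.52-fold higher. The 3 HOXC genes were again detected only in TESR pre-ME and passed the filter through them. HOXB9 had 30.2 and 23.4 in TESR and 1.18 and 3.96 in cjPSCM pre-ME (3.49 ± 0.61 with adjusted p = 0.000709), and HOXA9 9.88 and 13.1 in TESR and 2.95 and 0.991 in cjPSCM pre-ME (2.34 ± 0.53 with adjusted p = 0.00596). HOXA9 lost its call without replicate 2 of either group. DESeq2 called 6, without HOXC6. Among members with a negative change, 0 with and 1 without ActA had an unadjusted p under 0.05, and DESeq2 called 0 in both. The latter was HOXB2, with 18.1 and 9.83 in TESR and 30.7 and 28.7 in cjPSCM pre-ME (-1.10 ± 0.40 with adjusted p = 0.0799). HOXC8 and HOXB9 differed in the same direction between the cjiPSCs of the media.

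**Figure D4:**
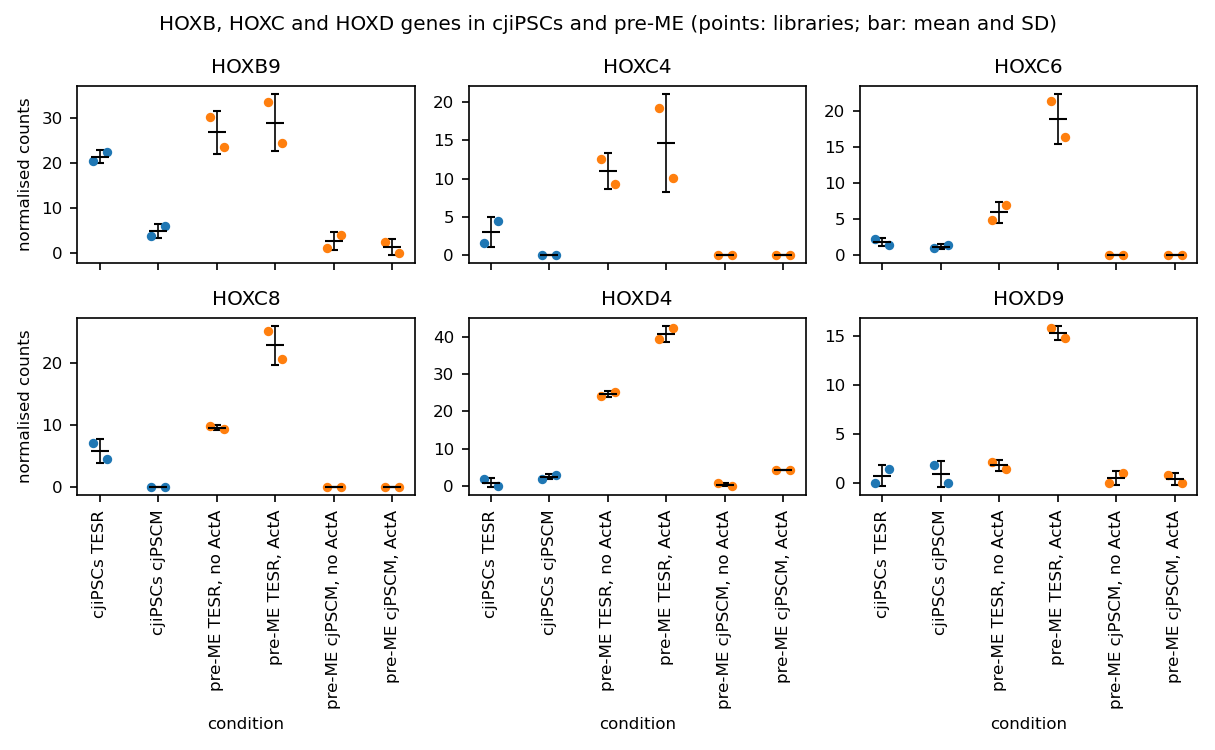
Normalised counts of HOXB9, HOXC4, HOXC6, HOXC8, HOXD4 and HOXD9 in cjiPSCs and pre-ME of the TESR and cjPSCM cultures; points are libraries, and the bar gives the mean with the SD of 2 replicates. Both TESR pre-ME groups lie above both cjPSCM groups for HOXB9, the 3 HOXC genes and HOXD4.

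The cells sorted on day 4 were checked against their markers. CXCR4, ITGA6 and EPCAM, the genes of the named sort markers, were higher in cjPGCLCs than in somatic cells with and without ActA (3 of 3). The cells were sorted on such proteins, so this only describes the sort. Of all genes tested, 1.41% were higher and 0.165% lower in cjPGCLCs with ActA, and 2.39% and 0.449% without. Of 5 germ cell markers, SOX17, TFAP2C, NANOS3 and DPPA3 were higher in both arms and PRDM1 was called in neither. PRDM1 still lay higher in all cjPGCLC libraries, at 288 and 279 against 99.2 and 85.1 in somatic cells without ActA. With ActA it had 221 and 196 against 86.8 and 93.9. The summed level of the germ cell list was 2648 and 2594 in cjPGCLCs without ActA and 1339.6 and 1391 with it, against 168 and 234 in somatic cells without and 267 and 339.9 in those with ActA, where NANOS3 and DPPA3 were at or under 3 counts. Markers of endoderm also differed. Of FOXA1 and FOXA2 only FOXA2 was tested, and it was higher in cjPGCLCs of both arms, with summed levels of the pair of 535 and 362 without and 196 and 83.9 with ActA, against 4.61 and 0 in somatic cells without and 0 and 1.49 in those with ActA. Mesoderm markers summed to between 2159 and 4861 in all day 4 libraries, mostly HAND1, and none of the 4 tested of 6 was called between the sorted groups. Amnion and surface ectoderm markers summed to between 6186 and 8943, and none of the 4 tested of 5 was called between the sorted groups. Of 3 pluripotency genes none was called there either. In pre-ME of the cjPSCM cultures TBXT and MSGN1, genes of the primitive streak and its mesoderm, were at or under 3 counts with and without ActA. FOXF1 was at or under 3 counts there too. In TESR pre-ME with ActA TBXT had 55.3 and 31.8, while MSGN1 had only 5 and 0 raw counts. The other listed mesoderm genes had reads in cjPSCM pre-ME with ActA. HAND1 had 16.7 and 18.3 there, MIXL1 19.2 and 11.2, MESP1 19.2 and 26.7 and TBX6 5.84 and 8.43. In TESR pre-ME with ActA they had 111 and 55.2, 87.6 and 95.5, 8.76 and 4.25, and 8.21 and 4.78. What part such differences in cell types have in the HOX levels was not tested.

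From pre-ME to day 4 somatic cells, HOXB3 and HOXD3 were higher in both arms, and none of the members described was called lower. HOXD3 had 1.77 and 4.95 in pre-ME and 60.0 and 55.7 in somatic cells without ActA (4.17 ± 0.49 with adjusted p = 5.19e-06, edgeR). With ActA it had 5.84 and 5.62 in pre-ME and 67.3 and 56.6 in somatic cells (3.39 ± 0.46 with adjusted p = 1.99e-05). HOXB3, a gene of the hindbrain and pharynx, had 23.1 and 26.3 in somatic cells without ActA, at least 10.4-fold above pre-ME. With ActA HOXB3 had 3.34 and 2.81 in pre-ME and 21.2 and 17.9 in somatic cells (2.59 ± 0.70 with adjusted p = 0.00614). Somatic and pre-ME libraries did not overlap in any of these. Without ActA, 8 of 19 tested members were higher and 0 lower, against 4.99% and 2.96% of all genes, with a median log2 fold change of 1.59 over the 19 tested HOX genes and 0 over all genes tested. In edgeR 0 members with a negative change had an unadjusted p under 0.05, and DESeq2 called 0 lower. Posterior genes were among those that were higher. HOXA13 went from 30.7 and 37.6 to 572 and 523 (3.99 ± 0.36 with adjusted p = 2.94e-07). HOXA9 went from 2.95 and 0.991 to 27.7 and 35.6 (3.78 ± 0.53 with adjusted p = 3.06e-05). HOXA10 went from 1.77 and 0.991 to 39.2 and 57.2, at least 20.3-fold higher. HOXA11 had no read in pre-ME and 27.7 and 21.7 in somatic cells, at least 10.4-fold higher. HOXD4 had 0.590 and 0 in pre-ME and 20.8 and 7.74 in somatic cells, at least 6.01-fold higher. HOXA3 had 17.7 and 6.93 in pre-ME and 53.0 and 57.2 in somatic cells, just over the fold threshold (2.05 ± 0.50 with adjusted p = 0.00349). The HOXA3 call was lost with no filter on low counts, without replicate 2 of the pre-ME and without replicate 2 of the somatic cells.

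With ActA, 4 of 19 tested members were higher in somatic cells than in pre-ME (HOXB1, HOXB3, HOXB6 and HOXD3) and 0 lower, against 5.29% and 3.01% of all genes, with a median log2 fold change of 1.25 over the 19 tested HOX genes and 0.0087 over all genes tested. HOXB1 had 3.34 and 1.40 in pre-ME and 26.6 and 19.4 in somatic cells (3.08 ± 0.78 with adjusted p = 0.0039, edgeR). HOXB6 had no read and 10.6 and 2.98, at least 2.03-fold higher, and was not called by DESeq2 or without replicate 1 of either group. The posterior HOXA genes started from high levels in this pre-ME. HOXA9 had 243 and 178 in pre-ME and 113 and 56.6 in somatic cells (-1.34 ± 0.29 with adjusted p = 0.00121, under the fold threshold), and was the 1 member with a negative change at an unadjusted p under 0.05 in edgeR. DESeq2 called 0 lower. HOXA13 had 161 and 176 in pre-ME and 545 and 261 in somatic cells (1.25 ± 0.31 with adjusted p = 0.00364). HOXA10 had 112 and 77.2 in pre-ME and 103 and 32.8 in somatic cells, and HOXA11 18.4 and 15.4 in pre-ME and 74.4 and 16.4 in somatic cells. The somatic replicates with ActA lay far apart, replicate 1 being above replicate 2 for all 4 genes, and for HOXA10 and HOXA11 they overlapped with pre-ME. Between the 2 kinds of somatic cells, with and without ActA, 0 of 19 tested members were called, while 0.00633% of all genes were higher and 0% of all genes lower. At an unadjusted p under 0.05 there was 1 member, HOXA9, with 27.7 and 35.6 without and 113 and 56.6 with ActA (1.39 ± 0.35 with adjusted p = 0.356), and DESeq2 called 0. HOXA3 had 53.0 and 57.2 without and 117 and 85.0 with ActA (0.87 ± 0.45 with adjusted p = 1).

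From pre-ME to cjPGCLCs, HOXA13 was higher in both arms. It had 30.7 and 37.6 in pre-ME and 317 and 241 in cjPGCLCs without ActA (3.05 ± 0.36 with adjusted p = 5.59e-06, edgeR). With ActA it had 161 and 176 in pre-ME and 1067 and 663 in cjPGCLCs (2.37 ± 0.31 with adjusted p = 1.48e-05). All cjPGCLC libraries were above their pre-ME for HOXA13. HOXA2 had 18.6 and 35.5 in cjPGCLCs with ActA and 158 and 107 in pre-ME (-2.35 ± 0.57 with adjusted p = 0.00265). Without ActA it had 37.2 and 39.4 in cjPGCLCs and 110.2 and 95.1 in pre-ME (-1.44 ± 0.54 with adjusted p = 0.0412, under the fold threshold). HOXB3 had 14.4 and 14.2 without ActA, at least 6.04-fold above pre-ME. With ActA these made 1 of the 19 members described and tested higher and 1 lower, against 6.15% and 2.22% of all genes. Without ActA 2 were higher and 0 lower, against 5.77% and 2.11%. There 2 members, HOXA2 and HOXD1, had a negative change at an unadjusted p under 0.05 in edgeR, and DESeq2 called 0 lower. The median log2 fold change was 0 over the 19 tested HOX genes and 0.039 over all genes tested with ActA, and 0.11 over the 19 tested HOX genes and 0.014 over all genes tested without. With ActA HOXA9 had 243 and 178 in pre-ME and 66.8 and 59.7 in cjPGCLCs, passing the test but not the fold threshold (-1.73 ± 0.29 with adjusted p = 0.00013). HOXA2 and HOXA13 lost their calls with ActA without cjPGCLC replicate 1, where HOXA7 was called lower and the count was 1, and HOXD1 and HOXD4 were called lower besides without cjPGCLC replicate 2, which made 4. HOXD4 had 0 and 4 raw counts in these cjPGCLCs. Without ActA and with no filter on low counts the number called was 4, adding HOXA11 and HOXD1.

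The cjPGCLCs from pre-ME with and without ActA were compared next, and HOXA9, HOXA10 and HOXA11 were higher with ActA. HOXA9 had 5.32 and 3.15 in cjPGCLCs of the arm without ActA and 66.8 and 59.7 in those of the ActA arm (3.76 ± 0.44 with adjusted p = 0.000383, edgeR). HOXA10 had 5.32 and 4.73 without and 52.4 and 45.5 with ActA (3.24 ± 0.54 with adjusted p = 0.00385). HOXA11 had 3.04 and 0 without and 27.9 and 19.9 with ActA (3.53 ± 0.89 with adjusted p = 0.0482). The ActA libraries were all higher, without overlap. HOXA13 had 317 and 241 without and 1067 and 663 with ActA, passing the test but not the fold threshold (1.62 ± 0.30 with adjusted p = 0.00787). These were 3 of 19 tested members, against 0.26% of all genes higher and 0.12% lower, and the median log2 fold change was 0.53 over the 19 tested HOX genes and -0.0069 over all genes tested. No member was lower by edgeR or DESeq2, and 0 were at an unadjusted p under 0.05 in that direction. HOXA2, HOXA3 and HOXA7 had log2 fold changes of -0.56 ± 0.61, 0.84 ± 0.54 and 2.12 ± 1.45, with adjusted p = 0.846, 0.59 and 0.64. Without cjPGCLC replicate 1 of the arm without ActA only HOXA9 was called, so that the count was 1. HOXA11 was called in 6 of 20 fits that each left out 1 library, and in none of those without a cjPGCLC library of the comparison. In the same cells TFAP2A was called lower with ActA, the 1 call among the 17 cell type markers tested, with 854 and 958 without and 116 and 329.9 with ActA (-2.06 ± 0.37 with adjusted p = 0.00652). Its list summed to 7813 and 7231 without and 6186 and 6983 with ActA. The germ cell gene SOX17 had 2152 and 2096 without and 913 and 1034 with ActA (-1.13 ± 0.42 with adjusted p = 0.212). The endoderm gene FOXA2 had 518 and 356 without and 192 and 83.9 with ActA (-1.65 ± 0.38 with adjusted p = 0.0295), and the part of such cells in the HOXA difference was not tested.

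The last comparison set cjPGCLCs against somatic cells sorted from embryoid bodies of the same arm. HOXA3 was lower in cjPGCLCs in both arms. It had 18.2 and 4.73 in cjPGCLCs and 53.0 and 57.2 in somatic cells without ActA (-2.07 ± 0.52 with adjusted p = 0.0172, edgeR). With ActA it had 26.2 and 19.9 in cjPGCLCs and 117 and 85.0 in somatic cells (-2.09 ± 0.46 with adjusted p = 0.0133). HOXD3 had 7.59 and 15.8 in cjPGCLCs and 60.0 and 55.7 in somatic cells without ActA (-2.39 ± 0.43 with adjusted p = 0.00157). With ActA it had 13.5 and 18.5 in cjPGCLCs and 67.3 and 56.6 in somatic cells (-1.96 ± 0.40 with adjusted p = 0.00792, just short of the fold threshold). The groups did not overlap for either gene. Without ActA, HOXA9, HOXA10 and HOXA11 were lower as well, while the other tested posterior members HOXA13, HOXB9 and HOXD9 were not called. HOXA9 had 5.32 and 3.15 in cjPGCLCs and 27.7 and 35.6 in somatic cells (-2.77 ± 0.50 with adjusted p = 0.00161). HOXA10 had 5.32 and 4.73 in cjPGCLCs and 39.2 and 57.2 in somatic cells (-3.22 ± 0.56 with adjusted p = 0.00121). HOXA11 had 3.04 and 0 in cjPGCLCs and 27.7 and 21.7 in somatic cells (-3.52 ± 0.95 with adjusted p = 0.0264). This made 5 of 19 tested members lower and 0 higher, against 0.449% and 2.39% of all genes, with a median log2 fold change of -1.25 over the 19 tested HOX genes and 0 over all genes tested. HOXA11 lost its call without any one of the 4 libraries, HOXA3 without either somatic replicate or cjPGCLC replicate 2, and HOXD3 without cjPGCLC replicate 1, so that 3 members were called in each of these fits. No member was higher at an unadjusted p under 0.05 (0) or by DESeq2. The study describes HOXD4 and HOXB6 as down-regulated in cjPGCLCs, beside a heatmap of relative expression and without a fold or p for them. Mean levels of both genes were lower in cjPGCLCs in both arms here too. With all libraries, edgeR called neither gene in either arm at the thresholds used here, which is a stricter measure. Without ActA HOXD4 had 1.52 and 3.15 in cjPGCLCs and 20.8 and 7.74 in somatic cells, without overlap. HOXB6 had 3.80 and 0 in cjPGCLCs and 4.61 and 1.55 in somatic cells, where the groups overlapped. Both genes had few reads.

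With ActA, 2 of 19 tested members were lower in cjPGCLCs, HOXA3 and HOXB1, and 0 higher, against 0.165% and 1.41% of all genes, with a median log2 fold change of -0.96 over the 19 tested HOX genes and 0.007 over all genes tested. HOXB1 had 0 and 7.11 in cjPGCLCs and 26.6 and 19.4 in somatic cells (-2.98 ± 0.78 with adjusted p = 0.0359, edgeR). HOXA2 had 18.6 and 35.5 in cjPGCLCs and 115 and 101 in somatic cells (-2.04 ± 0.58 with adjusted p = 0.0536). Both were lower in both cjPGCLC libraries. HOXD4 had 0 and 5.69 in cjPGCLCs and 12.4 and 8.94 in somatic cells. HOXB6 had 0 and 1.42 in cjPGCLCs and 10.6 and 2.98 in somatic cells. Neither was called, though for both genes the cjPGCLC libraries lay below the somatic ones. HOXA13 had 1067 and 663 in cjPGCLCs and 545 and 261 in somatic cells (1.12 ± 0.30 with adjusted p = 0.0377), higher in both cjPGCLC libraries but under the fold threshold. It was the 1 member with a positive change at an unadjusted p under 0.05, and DESeq2 called 0 higher. In this arm HOXA9, HOXA10 and HOXA11 had log2 fold changes of -0.39 ± 0.31, -0.43 ± 0.40 and -0.85 ± 0.60, with adjusted p = 0.637, 0.727 and 0.583. Neither HOXA3 nor HOXB1 was called without somatic replicate 1 or without cjPGCLC replicate 1, where 0 members were called. Both were lost without somatic replicate 2 too, where only HOXD3 was called. HOXA3 was also lost without cjPGCLC replicate 2, where HOXD3 and HOXD4 were called, and HOXB1 was called in 12 of the 20 fits that each left out 1 library, HOXA3 in 16. DESeq2 called HOXA3 and HOXA2 but not HOXB1. In the interaction, which asks whether the cjPGCLC against somatic difference depended on ActA, no tested member passed the adjusted p of 0.05, against 0.0633% of all genes. At an unadjusted p under 0.05 there were 4 members. Their interactions on the log2 scale were 2.06 ± 0.43 for HOXA13 (adjusted p = 0.0754), 2.37 ± 0.60 for HOXA9 (adjusted p = 0.191), 2.79 ± 0.70 for HOXA10 (adjusted p = 0.194) and 2.66 ± 1.15 for HOXA11 (adjusted p = 0.739). DESeq2 called 1, HOXA13. It was also called in edgeR without somatic replicate 1 with ActA (together with HOXA10), without cjPGCLC replicate 2 with ActA, and without either cjPSCM cjiPSC replicate. With no filter on low counts HOXA9, HOXA10 and HOXA13 were called.

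**Figure D5:**
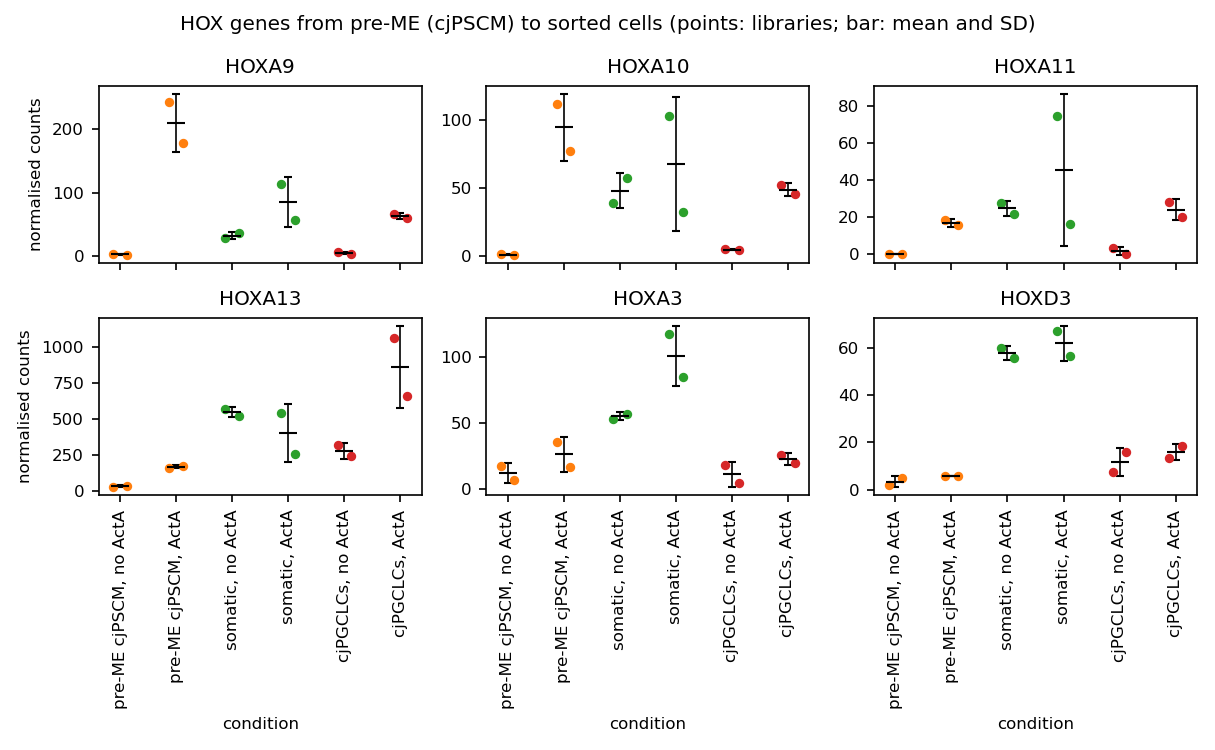
Normalised counts of HOXA9, HOXA10, HOXA11, HOXA13, HOXA3 and HOXD3 in cjPSCM pre-ME and in the somatic cells and cjPGCLCs sorted from their embryoid bodies on day 4; points are libraries, and the bar gives the mean with the SD of 2 replicates. HOXA9, HOXA10 and HOXA11 are lower in cjPGCLCs without ActA than in either group of somatic cells, and HOXA3 and HOXD3 are lower in cjPGCLCs than in somatic cells of both arms.

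Across conditions the members of 1 cluster differed from each other in where their mean level was highest. HOXA2 was highest in cjPSCM pre-ME with ActA at 132 ± 36.0 (SD, n = 2). HOXA3 was highest in somatic cells with ActA at 101 ± 22.5. HOXA7, HOXA9 and HOXA10 were highest in TESR pre-ME with ActA at 17.3 ± 5.71, 315 ± 19.0 and 117 ± 9.39. HOXA11 was highest in somatic cells with ActA at 45.4 ± 41.0, which rests on replicate 1: their libraries had 74.4 and 16.4, against 31.7 and 27.1 in TESR pre-ME with ActA. HOXA13 was highest in cjPGCLCs with ActA at 865 ± 286, followed by somatic cells at 547 ± 34.7 without and 403 ± 201 with ActA, which did not differ beyond their spread. In HOXB, HOXB2 and HOXB3 were highest in somatic cells without ActA at 92.5 ± 12.7 and 24.7 ± 2.29, HOXB1 in somatic cells with ActA at 23.0 ± 5.08, and HOXB6 and HOXB9 in TESR pre-ME with ActA at 12.7 ± 0.869 and 28.9 ± 6.34. All 3 tested HOXC genes were highest in TESR pre-ME with ActA, HOXC4 at 14.6 ± 6.41, HOXC6 at 18.9 ± 3.46 and HOXC8 at 22.9 ± 3.16. HOXD4 and HOXD9 were highest there too, at 40.9 ± 2.16 and 15.4 ± 0.714, while HOXD3 was highest in somatic cells with ActA at 62.0 ± 7.52 and HOXD1 in cjPSCM pre-ME with ActA at 10.1 ± 2.30. For HOXA2, HOXA10, HOXA11, HOXB1, HOXB9, HOXC4, HOXD1 and HOXD3 the libraries of the highest condition overlapped with those of the next, so their order is not settled.

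The 17 members that were not tested had few reads. Their highest count in any library was 24, for HOXA5, and their totals over all 20 libraries ran from 1 read for HOXC13 to 85 for HOXA5. HOXA5, HOXB5, HOXB7, HOXB8, HOXC10, HOXD8 and HOXD10 were highest in TESR pre-ME, HOXB4 in somatic cells without ActA and HOXC9 in TESR cjiPSCs. These 9 genes were detected in 1 or 2 conditions each. HOXA4, HOXA6, HOXC11 and HOXD11 each had a single library above 3 counts, with 1 and 11 counts for HOXD11 in TESR pre-ME with ActA, and HOXD13 had 2, in separate conditions. HOXC5, HOXC13 and HOXD12 had none. HOXB4, with 4 and 1 counts in cjPSCM pre-ME without ActA and 5 and 4 in their somatic cells, passed the filter and was called in most fits that left out 1 library. When edgeR was run with no filter on low counts, HOXA5 was called higher in pre-ME with ActA than in cjiPSCs of both media. It had 24 and 13 counts in TESR pre-ME with ActA against 2 and 2 in TESR cjiPSCs, and 11 and 0 in cjPSCM pre-ME with ActA against 0 and 0. HOXB5 and HOXB7 were called higher in TESR than in cjPSCM pre-ME with ActA, with 4 and 12 against 0 and 0 counts and 11 and 13 against 1 and 0. Differences among the other untested members were not detectable at this depth. In a RefSeq annotation of another marmoset assembly (calJac240_pri), HOXA3, HOXA4 and HOXA5 overlap each other, as do HOXB3 with HOXB4, HOXC4 with HOXC5, HOXC6, HOXC8 and HOXC9, and HOXD3 with HOXD4. Reads on shared exons may have been dropped as ambiguous, so low levels of these genes are uncertain.

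Factors that act on HOX genes or beside them were read from lists chosen with earlier results of these data known. Of 10 genes upstream of HOX (CDX1, CDX2, CDX4, TBXT, GDF11, EVX1, EVX2, RARB, CYP26A1 and ALDH1A2), 8 were tested. In TESR pre-ME with ActA 6 of the 8 were higher than in cjiPSCs, all but GDF11 and CYP26A1, against 4.44% of all genes. Without ActA 3 were higher, the CDX genes, against 4.54% of all genes. For the further comparisons of these lists, the shares of all genes called are those given above. In cjPSCM pre-ME with ActA CDX1, CDX2, CDX4 and EVX1 were higher than in cjiPSCs, against 1.42% of all genes. Without ActA the CDX genes were higher and CYP26A1, which degrades retinoic acid, was lower, against 2.11% and 3.16% of all genes. CDX1, a direct activator of HOX genes, had 3.77 and 1.48 in cjPSCM cjiPSCs, 199 and 147 in pre-ME without ActA and 678 and 449 with it. In TESR it had 18.2 and 16.4 in cjiPSCs, 860.2 and 937 in pre-ME without ActA and 727 and 1028 with it. With ActA against without, CDX2 (2.54 ± 0.35, SE), CYP26A1 (2.29 ± 0.68) and EVX1 (3.05 ± 0.48), the neighbour of HOXA13, were higher in cjPSCM pre-ME and none was called in TESR pre-ME. The interaction by medium passed for CDX1, 1.72 ± 0.31 with adjusted p = 0.0206 (edgeR), and for RARB, -1.12 ± 0.21 with adjusted p = 0.0261. Between the media TBXT was higher in TESR pre-ME with ActA, and CDX1, CDX2, CYP26A1, EVX1 and TBXT in TESR pre-ME without it. CDX1, CDX2, EVX1 and TBXT were also lower in cjPSCM than in TESR cjiPSCs. By day 4 CDX1 had fallen to 9.22 and 7.74 in somatic cells without ActA and to 1.77 and 1.49 in those with it. In cjPGCLCs it had fallen to 44.0 and 28.4 without and to 18.6 and 11.4 with ActA. CDX2 was lower than in pre-ME in 3 of these 4 groups and CYP26A1 in the 2 with ActA, while EVX1 was higher in somatic cells without ActA. Set against somatic cells, cjPGCLCs had CDX1 higher in both arms and CDX2 higher without ActA. No upstream gene was called between day 4 cells with and without ActA. Of 8 cofactors of the PBX, MEIS and PKNOX families, 7 were tested and few were called. PKNOX2 was lower in cjPSCM than in TESR cjiPSCs (-2.05 ± 0.18), MEIS1 was higher in somatic cells with ActA than in their pre-ME (2.23 ± 0.16), and MEIS3 higher in those without (2.19 ± 0.19). In the other 14 comparisons of conditions edgeR called 0 cofactors.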

How the data were processed

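Poly(A) RNA-seq libraries of 10 conditions, 2 replicates each, were analysed from 2 deposited tables. For the first, the authors checked reads with FastQC 0.11.8, mapped them with STAR 2.7.0a to calJac4 and assigned them to genes with HTSeq 0.11, giving raw counts per gene. The annotation release and the strand setting of the counting are not given in the sources used here, and the labels and the methods name different forms of the library kit, so reads of antisense HOX transcripts may be included. For the second table, the authors divided each library by its DESeq2 size factor, giving the normalised signal printed as levels. Lines for reads outside genes (10.6 to 23.2% per library) and for ambiguous reads (0.268 to 0.350%) were left out.

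Groups came from the sample labels. edgeR 4.0.16 (R 4.3.3) was run on the raw counts of all 20 libraries with TMM factors, filterByExpr by condition, 1 coefficient per condition and 10 residual degrees of freedom. Its quasi-likelihood test gave 17 comparisons and 2 interactions, with Benjamini-Hochberg adjustment over all 15797 genes tested; the thresholds were those of the study's methods. SE is the log2 fold change divided by the root of F. On simulated counts with 200 changed genes, 195 were called, with 3 others. All called HOX genes were named, up to 6 per comparison with each library's value. The HOXA genes described, HOXD4 and HOXB6 were named whether called or not, though not in every comparison. Below 3 calls the members with the 2 smallest p were added. Members and lists (HOX cofactors, upstream regulators, cell type and sort markers) were chosen with earlier results of these data known. Some genes of the rule and the lists are not reported here. DESeq2 1.42.0, its size factors in edgeR, no filter, a replicate block and leaving out each library were the alternatives. Depth limits low genes: 3 counts per library stood for up to 0.627 CPM. Names of all 36 members described were found in the RefSeq table of calJac240_pri, which was used only to see which members overlap.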

Additional observations from a re-analysis of the deposited data

Results flagged for a closer look

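HOXA13 differed in direction between the arms in the comparison of cjPGCLCs with somatic cells. With ActA its levels were 1067 and 663 in cjPGCLCs and 545 and 261 in somatic cells, a log2 fold change of 1.12 ± 0.30 with adjusted p = 0.0377 in edgeR. Without ActA they were 317 and 241 in cjPGCLCs and 572 and 523 in somatic cells, a log2 fold change of -0.94 ± 0.31 with adjusted p = 0.0637. Every cjPGCLC library thus lay above every somatic library in the ActA arm and below every one in the other. The interaction was 2.06 on the log2 scale (SE 0.43) with an unadjusted p of 0.000162 and an adjusted p of 0.0754 over all genes tested, so it did not pass the threshold. No group had enough libraries for a search for single outlying samples.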

How the results depend on the processing

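Of 85 calls of single HOX genes, 49 kept their direction and their side of the threshold in every setting that gave them an adjusted p, and 0 reversed. Settings without an adjusted p for a call were passed over, so some of the 49 were not judged by DESeq2. DESeq2's size factors in edgeR lost 0 calls and moved the median of all genes by at most 0.033 on the log2 scale. With no filter on low counts 1 call was lost, the cjPGCLC comparison with pre-ME without ActA had 4 calls, and the interaction of sort and ActA had 3. In DESeq2 7 calls were lost and 15 had no adjusted p. It called 3 members for ActA in TESR pre-ME, 8 for TESR pre-ME with ActA against cjiPSCs, 1 between cjiPSC media, 2 between pre-ME with ActA of the media and 1 in the interaction of sort and ActA. Leaving out 1 library at a time gave 3 to 5 calls for ActA in TESR pre-ME, 4 to 6 in cjPSCM pre-ME and 1 to 3 in cjPGCLCs. Against cjiPSCs it gave 3 to 9 in cjPSCM pre-ME with and 0 to 4 without ActA, and 11 to 14 and 4 to 7 in TESR pre-ME. It gave 1 to 4 between cjiPSC media, 7 to 7 and 6 to 8 between pre-ME of the media with and without ActA, 3 to 6 and 7 to 9 for somatic cells and 1 to 4 and 2 to 3 for cjPGCLCs against pre-ME. For cjPGCLCs against somatic cells it gave 0 to 3 with and 3 to 6 without ActA, and 0 to 2 in their interaction. A condition left with 1 library was assumed to vary like the others. No label ties same-numbered samples to a shared origin, and their deviations correlated between -0.20 and 0.26 over 45 pairs of conditions, with 0.25 for ActA in pre-ME of both media and 0.26 in cjPGCLCs. Samples were therefore not taken as paired. With the number as a replicate block, pre-ME without ActA had 3 calls against cjiPSCs in cjPSCM, where HOXD1 was lost, and 8 in TESR, where HOXA13 was added, and the other counts were equal. The crossed pairing, added after seeing the data, gave 9 and 3 calls for cjPSCM pre-ME with and without ActA against cjiPSCs and 8 for somatic cells without ActA against pre-ME. The causes were not tested. At this depth, differences of members below 3 counts per library were not detectable.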
